A study of Mus musculus with 9 samples.

Results

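Elastic fibre genes were followed in the mouse heart after coronary artery ligation, with and without implanted cells. The 10 genes were Eln, Fbn1, Fbln1, Fbln2, Fbln5, Efemp1, Efemp2, Mfap4, Mfap5 and Emilin1, chosen by symbol as known parts of the elastic fibre, with earlier results of these data known, from 53465 gene IDs in the count files. All 10 were among the 13825 genes with enough counts to be tested. The hearts came from NOD-SCID mice, an immunodeficient strain that lacks functional T and B cells and so tolerates foreign grafts, and this background was shared by all 3 groups. One group had sham surgery, one had ligation of a coronary artery (called ligation here), and one had the ligation followed by implantation of cells labelled FOXO3-GE-MPCs (called the cell group here), with 3 libraries in each. The labels name the infarct border zone, the muscle next to the infarct, as the tissue in every group, sham included. They do not give the time after surgery, the age or sex of the mice, the species of the implanted cells, or whether animals were pooled, so p-values measure the spread between libraries, part of which may be technical. The source fields of cell group replicates 2 and 3 name other FOXO members, a different one in each, while title and treatment of both name FOXO3, which was followed. No group with ligation and an implant other than these cells is among the samples, so an action of these cells and of implantation as such cannot be told apart.

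Elastic fibres give tissue its recoil. They consist of a core of cross-linked elastin on a scaffold of fibrillin microfibrils. Fibulins, EMILIN1 and microfibril-associated glycoproteins bind to the core, the scaffold or both and guide assembly, and lysyl oxidases cross-link the elastin monomers. In the heart, elastic fibres are found in arteries, valves, the endocardium and the epicardium, and fibroblasts and smooth muscle cells are the main cells that make them.

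The libraries held 4549268 to 7515052 counts assigned to genes, and the 10 genes had 76 to 2770 counts each in every library, far above the 3 counts (0.375 to 0.639 CPM) taken as the smallest detectable level. CPM are counts scaled to a common library size with edgeR's TMM factors. The file headers give sham replicates 1 and 2 a shared name stem, and ligation replicates 2 and 3 another, so these pairs may not be independent hearts; with each pair summed into 1 library, the same number of the 10 genes passed the test in each comparison. The cardiomyocyte markers fixed for a check of the tissue (Myh6, Tnnt2, Tnni3, Actn2, Ryr2, Actc1) summed to 36960 to 38940 CPM in sham, 31520 to 32320 CPM in ligation and 30530 to 31080 CPM in the cell group; after ligation Myh6, Tnni3 and Actc1 fell and Ryr2 rose. The atrial markers Sln, Myl4 and Myl7 summed to 405 to 449 CPM in sham, 277 to 316 CPM in ligation and 974 to 1021 CPM in the cell group. Mitochondrially encoded genes took 19.1% to 19.9% of counts in sham and 12.6% to 14.3% in the ligated groups.

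Ligation against sham asks how the elastic fibre genes stood in infarcted hearts. Of the 10 genes, 7 rose and 0 fell in edgeR's quasi-likelihood test at an adjusted p under 0.05. Mfap4 rose most, 3.91-fold, followed by Efemp1 (2.25-fold), Fbln1 (2.06-fold), Mfap5 (1.94-fold), Fbln2 (1.60-fold), Emilin1 (1.39-fold) and Fbn1 (1.23-fold). Elastin itself, Fbln5 and Efemp2 did not pass. Of all tested genes, 38.2% passed in this comparison, 20.1% as higher and 18.0% as lower. The median log2 fold change was 0.57 over the 10 genes and 0.01 over all tested genes. With library totals in place of TMM factors, the median of all tested genes shifted by 0.19 on the log2 scale and 10 of the 10 genes passed as higher; over all genes the calls were then 4966 higher and 1346 lower, against 2783 and 2494 with TMM. Changes below are relative to the TMM scale.

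**Figure D1:**
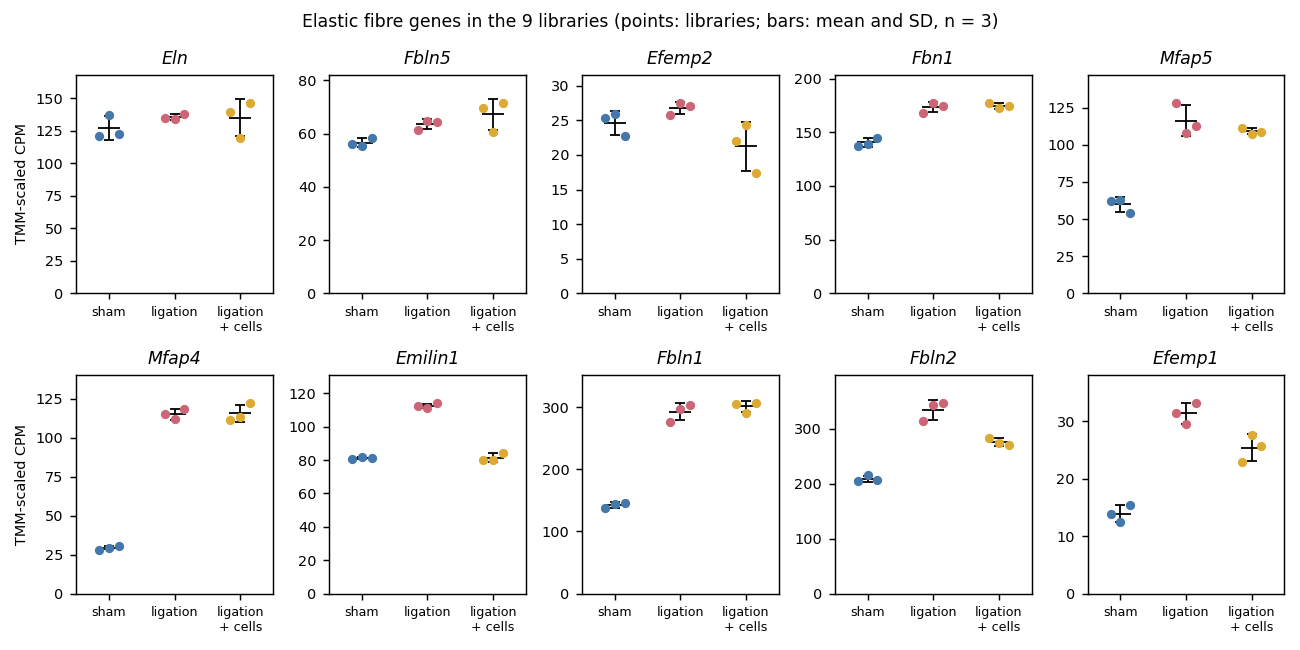
TMM-scaled CPM (vertical axes, each from 0) of the 10 elastic fibre genes in the 9 libraries of the sham, ligation and cell groups; points are libraries and bars are mean and SD (n = 3). The Mfap4 points sit at 28.3 to 30.3 CPM in sham and at 111 CPM or more in the 6 ligated hearts' libraries, whereas Eln spans 119 to 146 CPM over all 9.

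Eln (ENSMUSG00000029675, mm10 chr5:134702593-134747323, reverse strand) encodes tropoelastin, the monomer of the elastic core. It was measured at 121, 137 and 122 CPM in sham, at 135, 134 and 138 CPM in ligation, and at 139.6, 119 and 146 CPM in the cell group. The 3 groups overlapped, and the spread within the cell group was wider than the distance between any 2 group means. Ligation against sham gave a log2 fold change of 0.10 (SE 0.07, 95% interval -0.05 to 0.25, adjusted p = 0.316). This interval corresponds to 0.963 to 1.19 times the sham level. On library totals alone, this value was 0.28 and passed (adjusted p = 0.00355). Of its 8098 bases of exon, 267 (3.30%) are shared with the antisense gene Gm30003.

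Fbn1 (ENSMUSG00000027204, mm10 chr2:125300594-125507993, reverse strand) encodes fibrillin-1, the main protein of the microfibril and the gene mutated in Marfan syndrome. It stood at 137, 139.5 and 145 CPM in sham, 168, 177 and 174 CPM in ligation, and 177, 172 and 174 CPM in the cell group. Every ligated library was above every sham library, and the ligated groups overlapped each other. The rise from 141 ± 3.87 to 173 ± 4.50 CPM (SD, n = 3) was 0.30 on the log2 scale (SE 0.05, adjusted p = 1.10e-04). Reads for Fbn1 may be affected by the gene Gm9913 on the other strand, which shares 2442 (20.1%) of its 12128 bases of exon, since the strand setting of the counting is not given in the sources used here.

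Mfap5 (ENSMUSG00000030116, mm10 chr6:122505845-122529290, forward strand) encodes MAGP-2, a small glycoprotein of the microfibril. Sham libraries had 62.5, 62.9 and 54.1 CPM, ligation libraries 128, 108 and 113 CPM, and cell group libraries 111, 107 and 109 CPM. The ligated groups overlapped and both lay well above sham. The rise after ligation was 0.95 on the log2 scale (SE 0.08, adjusted p = 2.33e-09).

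Mfap4 (ENSMUSG00000042436, mm10 chr11:61485431-61488900, forward strand) encodes a fibrinogen-domain glycoprotein that binds tropoelastin, fibrillin and integrins. It measured 28.3, 29.5 and 30.3 CPM in sham, 115, 112 and 118 CPM in ligation, and 111, 113 and 122 CPM in the cell group. No ligated library came near the sham libraries, and the ligated groups overlapped. Ligation raised it by 1.97 on the log2 scale (SE 0.07, 95% interval 1.82 to 2.11, adjusted p = 1.04e-14), which ranked 204 from the top among the 13825 tested genes. An overlap of 89 bases (4.63% of its exon length) with Mapk7 on the genome was the sole one found for Mfap4.

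Emilin1 (ENSMUSG00000029163, mm10 chr5:30913402-30921277, forward strand) encodes elastin microfibril interfacer 1, which lies between the elastin core and the microfibrils and also limits processing of TGF-beta precursors. Its values were 80.8, 81.6 and 81.1 CPM in sham, 112, 111 and 114 CPM in ligation, and 80.1, 79.8 and 84.4 CPM in the cell group. Libraries within each group lay close together, ligation stood above both other groups without overlap, and the sham and cell groups overlapped. After ligation the gene rose by 0.47 on the log2 scale (SE 0.06, adjusted p = 2.01e-06).

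The 5 fibulin-family genes divided: Fbln1, Fbln2 and Efemp1 passed as higher after ligation, while Fbln5 and Efemp2 did not pass. Promoter sequence from RefSeq's tables (GRCm38.p6) was matched for 7 of the 10 genes, all but Eln, Mfap4 and Mfap5. The 250 bases before the most upstream listed start are shown for 4 fibulin-family genes, 2 that rose and 2 that did not pass, so that the 2 pairs can be read side by side. The window of Fbln2, which also rose, lies wholly in annotated exon and is not shown; it held 1 match to GGGCGG and 0 to CAGAC. Each runs 5′ to 3′ toward the start of the gene. Capitals mark matches to any of 7 motifs searched on both strands: TATAAA (the TATA box), GGGCGG (the Sp1 box), TGANTCA (the AP-1 site), GGAATG (a TEAD site), GTAAACA (a FOXO site), CAGAC (a SMAD element) and the CArG box.
Fbln1, chr15:85205699-85205948, forward strand: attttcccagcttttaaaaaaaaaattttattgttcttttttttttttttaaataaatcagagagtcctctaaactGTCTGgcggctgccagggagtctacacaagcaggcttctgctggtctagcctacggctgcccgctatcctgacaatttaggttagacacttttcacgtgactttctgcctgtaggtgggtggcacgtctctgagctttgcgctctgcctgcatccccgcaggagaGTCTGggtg
Efemp1, chr11:28852955-28853204, forward strand: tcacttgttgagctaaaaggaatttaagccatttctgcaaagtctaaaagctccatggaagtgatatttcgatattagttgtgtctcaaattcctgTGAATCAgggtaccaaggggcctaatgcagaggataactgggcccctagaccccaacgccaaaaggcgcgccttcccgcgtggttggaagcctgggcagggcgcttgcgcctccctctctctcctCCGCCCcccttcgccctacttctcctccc
Fbln5, chr12:101819120-101819369, reverse strand: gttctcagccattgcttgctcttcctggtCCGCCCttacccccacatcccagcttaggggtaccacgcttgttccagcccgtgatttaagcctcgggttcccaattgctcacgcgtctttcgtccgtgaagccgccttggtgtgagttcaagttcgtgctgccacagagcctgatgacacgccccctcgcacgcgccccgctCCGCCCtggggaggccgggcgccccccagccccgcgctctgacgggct
Efemp2, chr19:5473696-5473945, forward strand: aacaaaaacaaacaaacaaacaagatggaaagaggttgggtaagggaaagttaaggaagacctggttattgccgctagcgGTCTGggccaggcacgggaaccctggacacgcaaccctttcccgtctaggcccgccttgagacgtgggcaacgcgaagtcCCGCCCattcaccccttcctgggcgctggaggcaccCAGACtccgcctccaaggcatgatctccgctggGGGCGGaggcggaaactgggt
Fbln1 held 2 matches to CAGAC, starting 174 and 9 bases before the start, and Efemp2 held 2, at 170 and 54 bases. GGGCGG matched once in Efemp1 (29 bases before the start), at 2 places in Fbln5 (221 and 48 bases) and at 2 places in Efemp2 (90 and 21 bases). Efemp1 alone of the 4 held an AP-1 match, 154 bases before the start, where the same 7 letters match on both strands. The TATA, TEAD, FOXO and CArG letters were not in these 4 windows. Over 32851 promoter windows of 250 bases, 42.2% held CAGAC, 32.7% GGGCGG, 12.6% GGAATG, 12.4% TATAAA, 6.75% TGANTCA, 3.17% GTAAACA and 1.47% the CArG box. The matches depend on the start chosen: the window of a second listed start held 1 GGGCGG in Fbln1, 11 bases before that start, and 2 CAGAC and 0 GGGCGG in Fbln5, and each of the other 2 listed starts of Efemp2 had 5 GGGCGG and 0 CAGAC. The matched letters are a description of these windows, and binding was not measured.

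Fbln1 (ENSMUSG00000006369, mm10 chr15:85205949-85286535, forward strand) encodes fibulin-1, found within elastic cores and basement membranes. It was measured at 138, 144 and 146 CPM in sham, 277, 297 and 304 CPM in ligation, and 306, 291 and 306 CPM in the cell group. The ligated groups overlapped and both lay far above sham. The log2 fold change after ligation was 1.04 (SE 0.05, adjusted p = 3.06e-12).

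Fbln2 (ENSMUSG00000064080, mm10 chr6:91212455-91272540, forward strand) encodes fibulin-2, which binds elastin, fibrillin-1 and basement membrane proteins. It had 206, 215 and 207 CPM in sham, 314, 344 and 346 CPM in ligation, and 284, 274 and 269.9 CPM in the cell group. The 3 groups did not overlap, with ligation highest and sham lowest. The rise after ligation was 0.68 on the log2 scale (SE 0.05, adjusted p = 1.34e-09).

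Efemp1 (ENSMUSG00000020467, mm10 chr11:28853204-28926743, forward strand) encodes fibulin-3, a matrix glycoprotein of fascia and the eye among other tissues. Sham libraries held 13.9, 12.5 and 15.4 CPM, ligation libraries 31.5, 29.5 and 33.1 CPM, and cell group libraries 23.0, 27.6 and 25.6 CPM. These groups also did not overlap, in the same order as for Fbln2. The log2 fold change after ligation was 1.17 (SE 0.12, adjusted p = 9.67e-08), with the widest error among the genes that rose.

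Fbln5 (ENSMUSG00000021186, mm10 chr12:101746565-101819055, reverse strand) encodes fibulin-5, which tethers tropoelastin and the cross-linking enzyme LOXL1 to the scaffold. It stood at 56.1, 55.2 and 58.4 CPM in sham, 61.4, 64.5 and 64.5 CPM in ligation, and 69.6, 60.5 and 71.5 CPM in the cell group. All ligated libraries were above all sham libraries, by a small margin. The log2 fold change after ligation was 0.17 (SE 0.07, 95% interval 0.01 to 0.32), with an adjusted p of 0.0800 that missed the threshold; it was 0.36 on library totals alone (adjusted p = 6.46e-04).

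Efemp2 (ENSMUSG00000024909, mm10 chr19:5473954-5482517, forward strand) encodes fibulin-4, which brings lysyl oxidase to tropoelastin and without which elastic fibres do not form. Its libraries had 25.3, 25.9 and 22.7 CPM in sham, 25.8, 27.5 and 27.1 CPM in ligation, and 22.0, 24.3 and 17.4 CPM in the cell group. Sham overlapped with ligation and with the cell group. Ligation against sham gave 0.13 on the log2 scale (SE 0.12, 95% interval -0.12 to 0.37, adjusted p = 0.424), or 0.32 on library totals alone, which passed (adjusted p = 0.0340). The gene shares 173 bases (4.57% of its exon length) with Mus81.

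In all, 8 of the 10 genes had ligation libraries that were all above the sham libraries, including Fbln5, and Eln and Efemp2 overlapped. Over all tested genes, 47.6% had ranges that did not overlap between these groups, 25.0% with ligation higher and 22.6% with ligation lower.

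**Figure D2:**
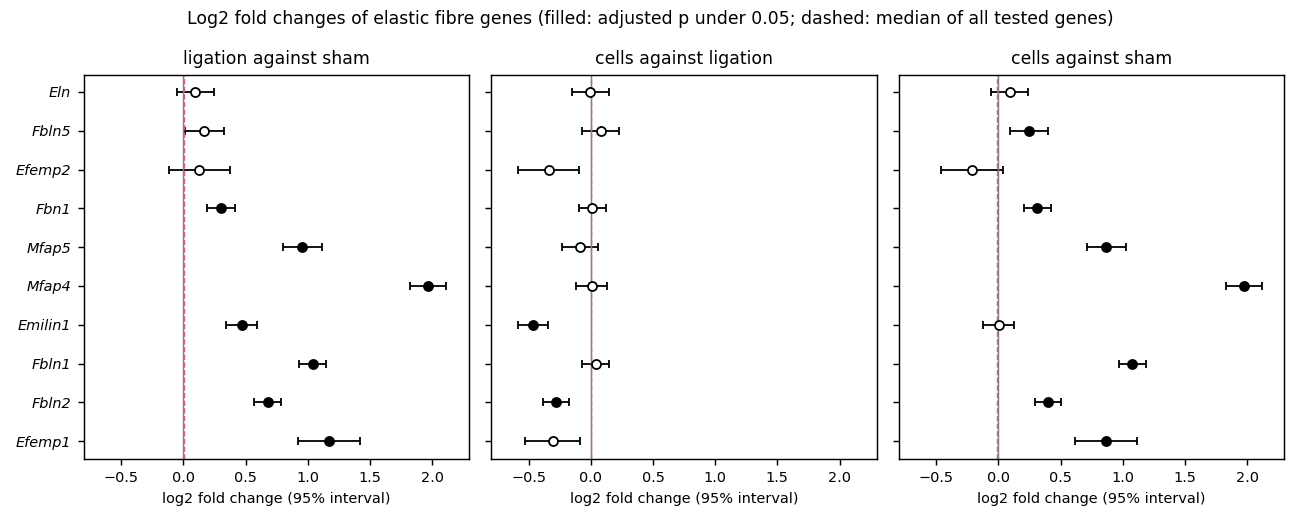
Log2 fold changes (horizontal axis) with 95% intervals for the 10 elastic fibre genes in each comparison; filled points have an adjusted p under 0.05 and the dashed line is the median of all tested genes. The points for Mfap4 sit near 1.97 against sham in both ligated groups, and Emilin1 moves from 0.47 in ligation against sham to -0.47 in the cell group against ligation.

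The cell group against ligation asks what differed in ligated hearts that received the cells. In these bulk counts, RNA of the implanted cells cannot be told apart from that of the host heart. Of the 10 genes, Emilin1 and Fbln2 fell and 0 rose, while 9.87% of all tested genes passed in this comparison, 4.19% as higher and 5.69% as lower. Over all tested genes, 579 were higher and 786 lower with TMM factors, and 436 and 927 on library totals alone. The higher count was 364 without ligation replicate 2 and 373 without ligation replicate 3. The median log2 fold change of the 10 genes was -0.05, beside 0.00 over all tested genes.

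Emilin1 fell by 0.47 on the log2 scale (SE 0.06, 95% interval -0.59 to -0.34, adjusted p = 1.32e-05), a level 1.38-fold lower than in ligation. All 3 cell group libraries were below all 3 ligation libraries. Fbln2 fell by 0.28 (SE 0.05, 95% interval -0.39 to -0.17, adjusted p = 7.82e-04), 1.21-fold lower, again with no overlap. The calls on both genes held in every alternative that was run, leaving out each library included.

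Efemp1 and Efemp2 also had cell group libraries that were all below the ligation libraries, but neither passed. Efemp1 gave -0.31 (SE 0.11, 95% interval -0.53 to -0.08, adjusted p = 0.0763). Efemp2 gave -0.34 (SE 0.12, 95% interval -0.58 to -0.09, adjusted p = 0.0765), and -0.45 with an adjusted p of 0.0311 without cell group replicate 2. With these, 4 of the 10 genes did not overlap between the groups, each lower with cells, where 27.2% of all tested genes did not overlap, 13.2% with the cell group higher and 14.0% with it lower.

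The other 6 genes gave log2 fold changes between -0.09 and 0.08 in the cell group against ligation. Eln gave -0.01 (95% interval -0.16 to 0.14), Fbn1 0.01 (-0.10 to 0.12) and Mfap4 0.01 (-0.12 to 0.13). Fbln1 gave 0.04 (-0.07 to 0.14), Fbln5 0.08 (-0.07 to 0.23) and Mfap5 -0.09 (-0.24 to 0.06). The intervals of these 6 genes span 0.850 to 1.17 times the ligation level, and the adjusted p-values ran from 0.509 for Mfap5 to 0.972 for Eln.

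The cell group against sham, which shares its libraries with the comparisons above, asks where the treated hearts stood relative to hearts without ligation. Of the 10 genes, 7 rose and 0 fell, where 40.9% of all tested genes passed, 21.0% as higher and 20.0% as lower. Of all tested genes, 2899 were higher and 2762 lower with TMM factors, and 4612 and 1698 on library totals alone, a scale that shifted the median of all tested genes by 0.16. The genes that rose were Mfap4 (1.97 on the log2 scale, adjusted p = 8.98e-15), Fbln1 (1.08, adjusted p = 1.49e-12), Mfap5 (0.87, adjusted p = 8.73e-09), Efemp1 (0.86, adjusted p = 6.91e-06), Fbln2 (0.40, adjusted p = 2.70e-06), Fbn1 (0.31, adjusted p = 6.93e-05) and Fbln5 (0.25, adjusted p = 0.00995). These 7 had ranges that did not overlap with sham, as had 49.8% of all tested genes, 25.4% with the cell group higher and 24.5% with it lower.

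Fbln5 passed here and not in ligation against sham, but the cell group and ligation overlapped for this gene, and without cell group replicate 3 its adjusted p was 0.0632. Emilin1 gave 0.00 against sham (SE 0.06, 95% interval -0.12 to 0.13, adjusted p = 0.958), so its level with cells lay between 0.920 and 1.09 times that of sham. On library totals alone Emilin1 was higher with cells, by 0.16 (adjusted p = 0.0353), and Eln by 0.25 (adjusted p = 0.00892). Eln gave 0.09 (adjusted p = 0.337) and Efemp2 -0.21 (adjusted p = 0.173) with TMM factors.

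To compare levels between genes, CPM were divided by the exon length of each gene in kb. In sham, Fbln2 (32.9 ± 0.827, SD, n = 3) and Fbln1 (32.6 ± 0.954 CPM per kb) were the most abundant and their ranges overlapped. A middle set followed, with Mfap5 at 16.7, Emilin1 at 16.4, Eln at 15.6 and Mfap4 at 15.3 CPM per kb, in which each neighbour overlapped the next. Fbn1 stood at 11.6 and Fbln5 at 8.18 CPM per kb, each apart from its neighbours. Efemp1 (6.84) and Efemp2 (6.50 CPM per kb) were lowest and overlapped.

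After ligation the order changed. Fbln1 was highest at 67.0 ± 3.26 CPM per kb (SD, n = 3), Mfap4 came next at 59.8 ± 1.71, and Fbln2 followed at 52.6 ± 2.82. Mfap5 stood at 32.4, Emilin1 at 22.8 and Eln at 16.7 CPM per kb. Efemp1 (15.4) and Fbn1 (14.3 CPM per kb) overlapped and were the sole neighbours to do so. Fbln5 (9.18) and Efemp2 (7.08 CPM per kb) were lowest. With cells, Fbln1 (68.9), Mfap4 (60.1), Fbln2 (43.3) and Mfap5 (30.4 CPM per kb) had the same order at the top, Eln and Emilin1 overlapped at 16.7 and 16.5 CPM per kb, and no other neighbours overlapped.

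**Figure D3:**
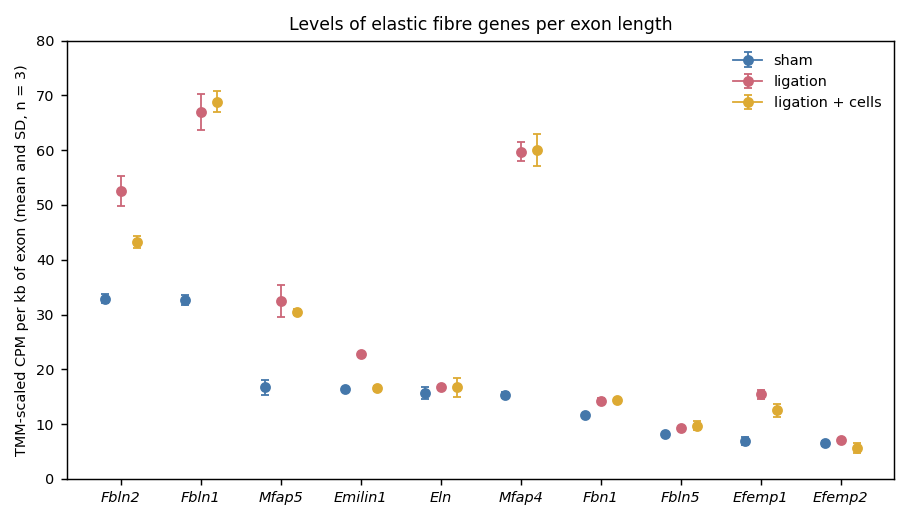
TMM-scaled CPM per kb of exon (vertical axis) of the 10 elastic fibre genes, ordered by their sham level; points are group means and bars are SD (n = 3). Mfap4 lies at 15.3 CPM per kb in sham, below Eln, and at 59.8 and 60.1 CPM per kb in the ligated groups, below Fbln1 alone.

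The 10 genes summed to 885 ± 17.7 CPM (SD, n = 3) in sham, 1402 ± 32.3 CPM in ligation and 1306 ± 31.5 CPM in the cell group. The ranges of the 3 sums, 868 to 904 CPM, 1368 to 1432 CPM and 1270 to 1326 CPM, did not overlap. Eln took 14.3% of the sum in sham, 9.67% in ligation and 10.3% with cells, while Mfap4 took 3.32%, 8.20% and 8.84%. Emilin1 took 9.18%, 8.02% and 6.24%, and Fbln2 23.7%, 23.9% and 21.1%.

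Ratios of CPM per kb within a library do not depend on how libraries are scaled. The 7 pairs examined were chosen after their values had been seen, so no test is given. Mfap4 to Eln was 0.987, 0.904 and 1.05 in the sham libraries, 3.58, 3.52 and 3.61 in ligation, and 3.36, 4.003 and 3.51 with cells. Mfap4 was thus close to Eln in the sham libraries and more than 3 times as high in every ligated one. Eln to Fbn1, the core against the scaffold, was 1.35 ± 0.110 in sham (SD, n = 3), 1.17 ± 0.0380 in ligation and 1.16 ± 0.111 with cells. All ligation ratios were below the sham ratios, and the ligated groups overlapped.

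Emilin1 to Fbn1 was 1.45, 1.44 and 1.38 in sham, 1.64, 1.54 and 1.60 in ligation, and 1.11, 1.14 and 1.19 with cells. Here the cell group was below both other groups in every library. Fbln1 to Fbln5 went from 3.99 ± 0.117 in sham (SD, n = 3) to 7.30 ± 0.162 in ligation and 7.11 ± 0.447 with cells. Efemp1 to Efemp2 went from 1.06 ± 0.184 to 2.18 ± 0.159 and 2.27 ± 0.417. Mfap5 to Fbn1 went from 1.44 ± 0.155 to 2.27 ± 0.264 and 2.11 ± 0.00885. For these last 3 pairs the ligated groups overlapped and both lay above sham. Fbln2 to Eln was 2.10 ± 0.0964 in sham, 3.14 ± 0.165 in ligation and 2.62 ± 0.289 with cells, with no overlap between groups.

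**Figure D4:**
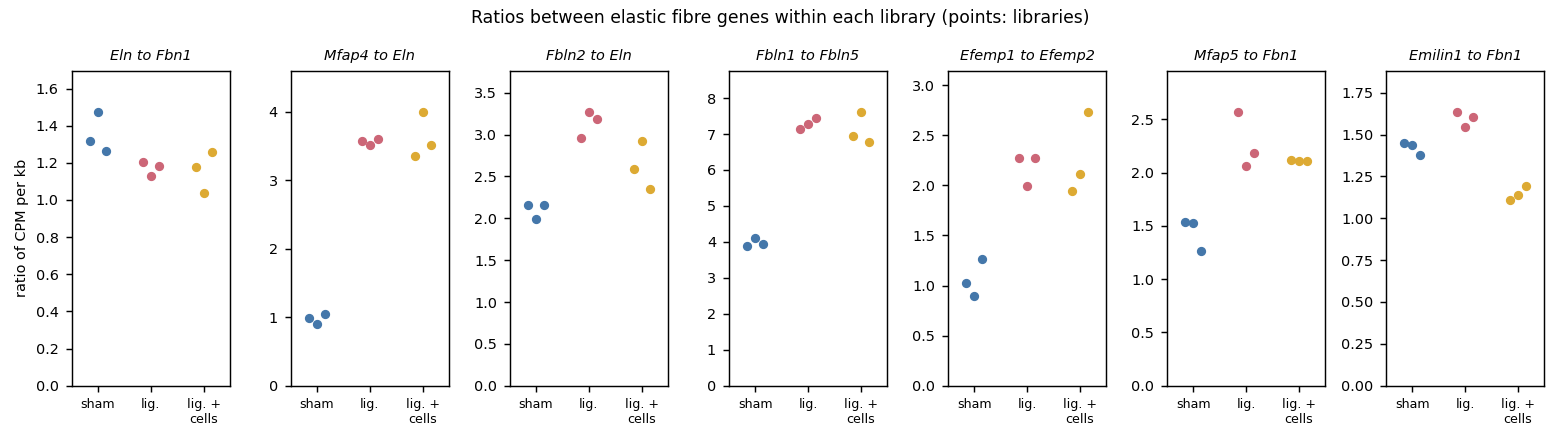
Ratios of TMM-scaled CPM per kb between pairs of elastic fibre genes (vertical axes, each from 0) within each of the 9 libraries; points are libraries, grouped as sham, ligation and ligation with cells. Mfap4 to Eln lies between 0.904 and 1.05 in sham and above 3 in the ligated groups, and Emilin1 to Fbn1 is lowest in the cell group, at 1.11 to 1.19.

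The rest of the elastic fibre machinery was read from a wider list of 46 genes that does not hold the 10, of which 42 were tested. After ligation 27 rose and 4 fell, with a median log2 fold change of 0.48. Of all tested genes 38.2% passed, 20.1% as higher and 18.0% as lower, and their median was 0.01. Without ligation replicate 3, 22 rose and 3 fell. Of the 7 genes for cross-linking and assembly, 6 rose and 0 fell. Lox, the lysyl oxidase that cross-links elastin and collagen, rose from 16.5 ± 1.84 to 55.1 ± 1.68 CPM (SD, n = 3; 1.74 on the log2 scale, adjusted p = 8.95e-12). Loxl3 and Loxl4, of the same enzyme family, rose by 1.60 (adjusted p = 3.17e-09) and 1.63 (adjusted p = 0.00139), the latter from 1.49 to 4.74 CPM. Loxl1, the partner of fibulin-5, rose by 0.29, from 92.5 to 113 CPM (adjusted p = 0.00204).

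Of 12 tested microfibril-associated genes, 8 rose and 0 fell. Ltbp2, a latent TGF-beta binding protein that associates with microfibrils, went from 9.26, 14.2 and 11.4 CPM in sham to 115.5, 121 and 138 CPM in ligation and 104, 109 and 109 CPM with cells. No ligated library came near the sham libraries, and the rise after ligation was 10.7-fold, or 3.42 on the log2 scale (SE 0.11, adjusted p = 8.57e-16). Adamtsl2, a fibrillin-binding protein, rose by 1.69 (adjusted p = 1.49e-10). Ltbp4, which helps place fibulin-5 and fibulin-4 on microfibrils, rose by 0.21, from 491 to 567 CPM (adjusted p = 0.00393), a call lost without ligation replicate 3 (0.14, adjusted p = 0.0554). Of the 4 other fibrillins and fibulins, Fbln7 rose by 2.39 from 1.12 CPM (adjusted p = 3.14e-05), Hmcn1 and Hmcn2, the large hemicentins, fell, by 0.63 (adjusted p = 2.98e-05) and by 0.70 (adjusted p = 2.05e-06), and Fbn2 did not pass.

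Among 3 other tested EMILIN and multimerin genes, Mmrn1 rose and Mmrn2 fell. Of 7 tested proteases that can cleave elastin, 5 rose and 1, Ctsk, fell. Among the 5, Mmp9 had 6 to 12 counts in sham, and its call was lost without sham replicate 2 (adjusted p = 0.0731) and without ligation replicate 3 (adjusted p = 0.0781). Mmp12, macrophage elastase, had 3, 0 and 4 counts in the sham libraries and 7.01 ± 1.33 CPM (SD, n = 3) after ligation (adjusted p = 1.38e-07). Ctss, cathepsin S, rose from 28.6 ± 0.400 to 71.0 ± 4.32 CPM (1.30 on the log2 scale, adjusted p = 6.75e-11). Of 9 genes of the elastin receptor complex and integrins, 6 rose and 0 fell; the 6 comprised 5 integrin genes and Ctsa, which encodes the protective protein of the receptor complex (0.30, adjusted p = 9.54e-04).

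**Figure D5:**
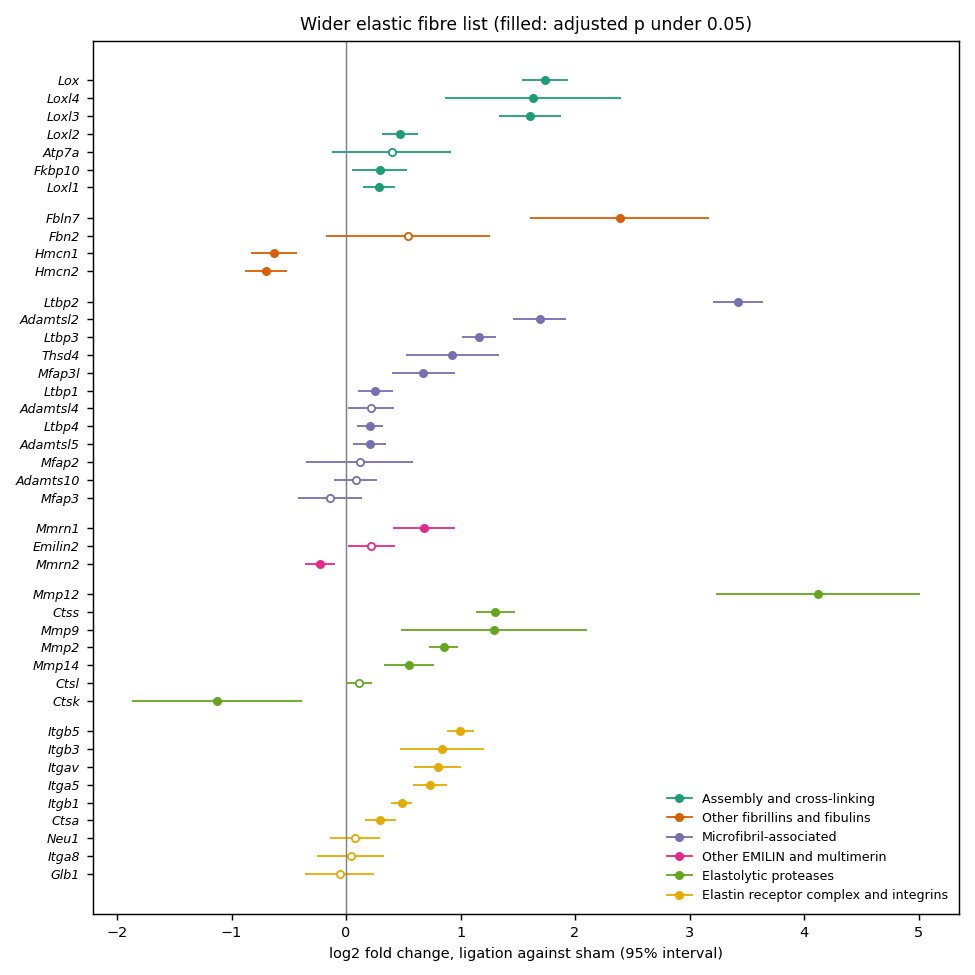
Log2 fold change after ligation against sham (horizontal axis, with 95% intervals) for 42 tested genes of the wider elastic fibre list, coloured by role; filled points have an adjusted p under 0.05. Ltbp2 lies at 3.42, Hmcn1 and Hmcn2 lie below 0, and the far-right point, Mmp12, rests on 0 to 4 counts in the sham libraries.

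In the cell group against ligation, 0 of the 42 genes rose and 4 fell, namely Ctss, Mmp9, Emilin2 and Ctsa, with a median of -0.08. This count depended on the tool: limma-voom called 1 higher (Itgb1, an integrin subunit) and 7 lower, DESeq2 called 1 higher (Itgb1) and 4 lower, and a fit to the 2 groups compared called 0 higher and 7 lower. In this comparison 9.87% of all tested genes passed, 4.19% as higher and 5.69% as lower, and their median was 0.00. Ctss went from 75.8, 69.5 and 67.6 CPM in ligation to 24.3, 25.9 and 27.5 CPM with cells (fell by 1.45 on the log2 scale, adjusted p = 6.43e-11). Sham libraries had 28.2 to 28.9 CPM, and the cell group against sham did not pass (-0.14, adjusted p = 0.212; 0.01 on library totals alone). Mmp9, gelatinase B, had 15, 28 and 39 counts in ligation and 1, 3 and 0 counts with cells (adjusted p = 2.11e-05). Emilin2, a relative of Emilin1, went from 36.7 ± 3.26 to 25.6 ± 2.04 CPM (SD, n = 3; fell by 0.51, adjusted p = 0.00168), and sham had 31.3 ± 2.72 CPM. Ctsa fell by 0.30, from 165 to 134 CPM (adjusted p = 0.00341).

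Lox (-0.24, adjusted p = 0.0604), Loxl3 (-0.34, adjusted p = 0.0551) and Ltbp2 (-0.23, adjusted p = 0.0765) were lower with cells without passing, each with ranges that did not overlap between the groups. All 3 passed with limma-voom (adjusted p = 0.0456, 0.0365 and 0.0347) and in a fit to the 2 groups compared (0.0488, 0.0465 and 0.0335), Lox and Loxl3 also on library totals alone (0.0365 and 0.0376), and Ltbp2 also with no filter on low counts (0.0267). Leaving out 1 library, Loxl3 passed without sham replicate 1 (0.0499) and Ltbp2 without sham replicate 2 (0.0388) or ligation replicate 1 (0.0336). Loxl1 gave -0.03 (adjusted p = 0.825), Ltbp4 -0.09 (adjusted p = 0.309) and Mmp12 0.28 (adjusted p = 0.551). Higher with cells without passing, and with ranges that did not overlap, were Mmrn1 (0.34, adjusted p = 0.0717), Itgb1 (0.12, adjusted p = 0.0787) and Mfap3l (0.30, adjusted p = 0.117). Against sham, 23 of the 42 genes were higher with cells and 7 lower, with a median of 0.29. Of all tested genes 40.9% passed, 21.0% as higher and 20.0% as lower. The 7 became 4 without sham replicate 3, without cell group replicate 2 or on library totals alone, and Emilin2, one of the 7, lost its call in 4 of the 9 fits that left out a library. Lox was above sham by 1.49 (adjusted p = 8.97e-11) and Ltbp2 by 3.20 (adjusted p = 2.92e-15).

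Markers of several cell types moved with these groups. Of all tested genes, 20.1% passed as higher and 18.0% as lower after ligation, and 4.19% and 5.69% in the cell group against ligation. The 8 fibroblast markers summed to 2159 to 2227 CPM in sham, 3404 to 3486 CPM in ligation and 3260 to 3345 CPM with cells. After ligation 5 rose and 1 (Pdgfra) fell, while Tcf21 (0.08 on the log2 scale) and Dpt (-0.09) did not pass. The higher sum in ligation rested largely on Col3a1 (from 470.5 to 1228 CPM) and Col1a1 (from 247 to 557 CPM). The 5 activated fibroblast markers summed to 115 to 132, 468 to 486 and 387 to 433 CPM, and 3 rose after ligation. That higher sum rested largely on Postn (from 84.3 to 426 CPM), while Fap (0.08) and Meox1 (0.18) did not pass. The 5 mesothelial markers, for cells of the heart's outer lining, summed to 31.1 to 41.1, 206 to 248 and 175 to 178 CPM, and 5 rose. None of the defining markers in these 3 lists was at 0 throughout a group. With cells, the lower sums of these lists rested on a few abundant genes. Of the fibroblast markers, 1 fell with cells, Col3a1 (from 1228 to 1049 CPM), and the median log2 fold change of the list was 0.02. Without passing, Lum (0.13), Pdgfrl (0.36), Dpt (0.09), Dcn (0.03) and Pdgfra (0.01) were above 0. Col1a1 (-0.12) and Tcf21 (-0.10) were below 0, also without passing. Of the activated fibroblast markers, 1 fell, Postn (from 426 to 357 CPM), and the median was -0.03. Cthrc1 was higher without passing (1.05, from 2.8 to 5.8 CPM, adjusted p = 0.0663), with ranges that overlapped. Of the mesothelial markers, Upk3b and Lrrn4 fell, and the median was -0.13. Wt1 was higher without passing (0.27, adjusted p = 0.221), with ranges that did not overlap.

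Markers of smooth muscle, another source of elastin, went the other way. The 6 of them summed to 698 to 741 CPM in sham, 521 to 549 CPM in ligation and 580 to 585 CPM with cells, and 3 of 5 tested fell after ligation. The 5 pericyte markers summed to 1269 to 1296, 892 to 934 and 860 to 897 CPM in the same order of groups, with 3 that fell after ligation and 1 that rose. The 5 endothelial markers summed to 1757 to 1866, 1159 to 1222 and 1284 to 1321 CPM, and all 5 fell after ligation. The 5 macrophage markers rose after ligation, from 362 to 401 CPM to 769 to 797 CPM, and all 5 fell with cells, to 319 to 331 CPM. The 5 fast skeletal muscle markers, for a tissue outside the heart, summed to 0.356 to 1.27 CPM in sham, 5.64 to 6.88 CPM in ligation and 0.288 to 1.11 CPM with cells. Of these, Myh4 was at 0 in every sham and cell group library and had 2, 11 and 15 counts in ligation, and Pvalb, the sole one tested, rose after ligation and fell with cells. The rise of 7 elastic fibre genes after ligation thus stood beside higher fibroblast, activated fibroblast, mesothelial, macrophage and fast skeletal muscle sums and lower cardiomyocyte, smooth muscle, pericyte, endothelial and atrial sums. Of these, the fibroblast and activated fibroblast sums rested largely on Col3a1, Col1a1 and Postn. The lower Emilin1 and Fbln2 in the cell group stood beside lower macrophage markers, of which 5 of 5 fell, and higher atrial markers, of which 3 of 3 rose. The fibroblast, activated fibroblast and mesothelial sums, which rested on the few genes named above, and the fast skeletal muscle sum were also lower with cells than in ligation, without overlap. So was the cardiomyocyte sum, in which 1 of 6 markers (Tnnt2) fell. The endothelial and smooth muscle sums were higher without overlap, where 2 of 5 endothelial (Kdr, Tek) and 1 of 5 tested smooth muscle markers (Acta2) rose. Of 5 pericyte markers, 2 (Kcnj8, Cspg4) fell, while the pericyte sums of the 2 groups overlapped. The part of these marker sums in the changes of the elastic fibre genes was not tested, and in such bulk samples fewer cells of a type and less RNA per cell cannot be told apart.

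The genes whose log2 CPM tracked Eln most closely over the 9 libraries were Pard3 (Pearson r = 0.966), Usf3 (0.939), Aptx (0.915), Pla2g6 (0.911) and Rgs4 (0.898), out of 9404 genes compared, each with 10 CPM or more on average. The points share their libraries and depth, Eln varied little between groups, and the correlations are given as a description.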

How the data were processed

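Per the labels' protocols, TRIzol was used to isolate RNA and the NEBNext Ultra RNA kit to prepare sequencing libraries. The deposited files hold unnormalized counts of reads for each gene, with a file for every library. The genome build is mm10, per the submitters' processing notes; the aligner, counter, strand setting and annotation are not given in the sources used here. Lines for reads in no gene (4.14% to 4.91%) or in overlapping genes (8.09% to 8.72%) were left out, so genes that overlap others can be undercounted.

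Symbols, positions and exon lengths came from GENCODE M21 annotation, which matched 53360 of 53465 gene IDs. The 10 genes, the wider list, the marker lists and the tests were chosen with earlier results of these data known. In R 4.3.3, edgeR 4.0.16 was fitted to all 9 libraries with 1 mean per group (filterByExpr, TMM, glmQLFit, glmQLFTest, two-sided), leaving 6 residual degrees of freedom. P-values were adjusted over 13825 genes (Benjamini-Hochberg), with a threshold of 0.05. The SE is the log2 fold change over the square root of F, and intervals are at 95%. Floors of 3 counts cover counting error only. The script was tested on simulated data.

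From the wider list, the genes named are the 8 largest changes after ligation and the 4 largest with cells that passed with ranges that did not overlap, plus Lox, Loxl1, Ltbp4 and Mmp12. Fbn2, Hmcn1, Hmcn2, Mmrn1, Mmrn2, Ctsk and Itgb1 were named after their values were seen, to account for small counts, as were the single marker genes. Mfap3l was also named after its values were seen. The genes most like Eln are the 5 with the highest Pearson correlation of log2(CPM + 0.5). Alternatives were other scalings and filters, removal of mitochondrially encoded genes, DESeq2 1.42.0, limma-voom (limma 3.58.1), fits to only the 2 groups compared, the replicate number as a block and leaving out each library. Summing libraries with a shared header stem was added after seeing the data. Figures were drawn with matplotlib 3.10.9.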

Additional observations from a re-analysis of the deposited data

How the results depend on the processing

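The number of the 10 genes that passed was 7 for ligation against sham under every alternative run, except 10 on library totals alone. It was 2 for the cell group against ligation, except 3 without cell group replicate 2, and 7 for the cell group against sham, except 9 on library totals alone and 6 without cell group replicate 3. Over all tested genes, leaving out 1 library gave 4482 to 5459, 951 to 1398 and 5055 to 5746 calls in these comparisons, against 5277, 1365 and 5661. For the wider list in the cell group against ligation, 8 genes passed with limma-voom (1 higher, 7 lower) and 7 in a fit to the 2 groups compared (all lower), against 4; the cause was not tested.

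The replicate numbers of the titles did not pair the libraries: deviations from the group means correlated at -0.12 to 0.14 for libraries of the same number and at -0.24 to 0.20 for others. With the replicate number as a block, 7, 2 and 7 of the 10 genes and 5134, 1230 and 5511 of all genes passed.

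Values near 0 changed sign. On library totals alone this held in the cell group against ligation for Fbn1 (-0.0197) and Mfap4 (-0.0225), and against sham for Ctss (0.0139) and Ctsa (0.154). Against sham, Ctsa also turned to 0.00426 with no filter on low counts, and Emilin1 to -0.0121 with mitochondrially encoded genes removed and -0.0130 with header stems summed. Leaving out 1 library gave, in the cell group against ligation, -0.0688 to 0.0752 for Eln, -0.0117 to 0.0233 for Fbn1, -0.00133 to 0.068 for Fbln1, -0.0348 to 0.0337 for Mfap4, -0.39 to 0.165 for Fbln7, -0.252 to 0.0669 for Loxl4 and -0.0947 to 0.032 for Loxl1. Against sham it gave -0.0214 to 0.0208 for Emilin1 and -0.0538 to 0.0384 for Ctsa. None of these values passed the test. Of the values of the 10 genes, 259 of 270 with 1 library left out and 291 of 300 under other settings kept both direction and side of the threshold.

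At 76 to 2770 counts per library, the 95% intervals of Eln and Efemp2 in ligation against sham include 0, while that of Fbln5 does not and only its adjusted p missed the threshold.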
